A study of Mus musculus with 40 samples.

Results

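The gene expression of Akita kidney after treatment with MitoGamide was set against that of wild-type (WT) kidney given the vehicle alone, to ask what still differed from healthy kidney once treatment had ended. These are 10 of the 40 RNA sequencing libraries of the study, 5 MitoGamide Akita and 5 vehicle WT, and the comparison covered the 17182 of 55401 annotated genes whose mean count in these libraries was 10 or more. All mice were males on the C57BL/6J background. Akita mice carried 1 mutant copy of the insulin gene Ins2 and were dosed with MitoGamide at 10 mg/kg by daily gavage from 6 to 22 weeks of age, that is for 16 weeks. Their WT littermates received only the vehicle, 10% ethanol in water, over the same period, and the labels give ethanol as the vehicle of MitoGamide too, so animals of both groups received it. RNA came from the renal cortex. Genotype and compound both differ between the groups, and their parts in a difference cannot be told apart within this comparison.

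The Akita mutation makes insulin misfold in the pancreatic beta cell, which fails early in life, and the mice become diabetic without high-fat feeding or toxin. In such animals the proximal tubule, the segment that reclaims filtered glucose, amino acids and albumin, meets a continuous excess of glucose. Sugars break down in part to reactive dicarbonyls such as methylglyoxal, which modify proteins, and MitoGamide is a mitochondria-directed compound built to trap them. In bulk cortex RNA, fewer cells of a type and less RNA per cell cannot be told apart.

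The libraries held 14161145 to 18667162 counts in MitoGamide Akita and 15289948 to 24321424 in vehicle WT. On the first principal component, which carried 37.4% of the variance, the groups separated, and replicate 5 of MitoGamide Akita lay at -74.0 while the other 4 lay between -21.0 and -8.99 and the WT libraries between 19.1 and 35.2. Where leaving out this animal changed a call or moved a called log2 fold change more than 1.5-fold, the value without it is given too. Transcripts of the mitochondrial genome made up 28.0% to 35.4% of counts in MitoGamide Akita and 20.1% to 22.6% in vehicle WT, while the summed olfactory receptor genes, a family that kidney should hardly express, stood at 342 ± 71.7 CPM (counts scaled to a library of 1000000) against 540.0 ± 111 (SD, n = 5), with overlapping groups (2-sided exact permutation p = 0.0159, 0.061 when adjusted over 23 sums compared). Ribosomal RNA had been depleted during library preparation. The part of these shifts in the results below was not tested. Of the tissue's defining genes, the proximal tubule marker Lrp2 (megalin) stood at 6188 to 7276 CPM in WT. Ins2 itself gave 2 counts over the 5 Akita and 1 over the 5 WT libraries, so the genotype could not be read from its RNA.

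Expression differed widely between the groups. By edgeR's quasi-likelihood test with Benjamini-Hochberg adjusted p under 0.05, 1513 genes (8.81% of those tested) were higher in MitoGamide Akita and 1123 (6.54%) were lower, together 15.3%. Most differences were moderate, with a median log2 fold change of 0.55 among the genes that rose and -0.72 among those that fell. At least a 2-fold change was seen in 556 genes, 238 up and 318 down, and at least a 4-fold change in 87, of which 34 were up and 53 down. In 1859 of the called genes (70.5%) the values of the 5 Akita and 5 WT libraries did not overlap, whereas over all genes tested Akita lay wholly above WT in 7.79% and wholly below it in 5.61%, together 13.4%. Without replicate 5 of MitoGamide Akita, 1744 genes were higher and 1321 lower. Leaving out replicate 2 of MitoGamide Akita (978 and 705 genes) or replicate 1 (869 and 648), 4 (753 and 576) or 5 (900 and 698) of vehicle WT lowered the counts more than 1.5-fold.

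**Figure D1:**
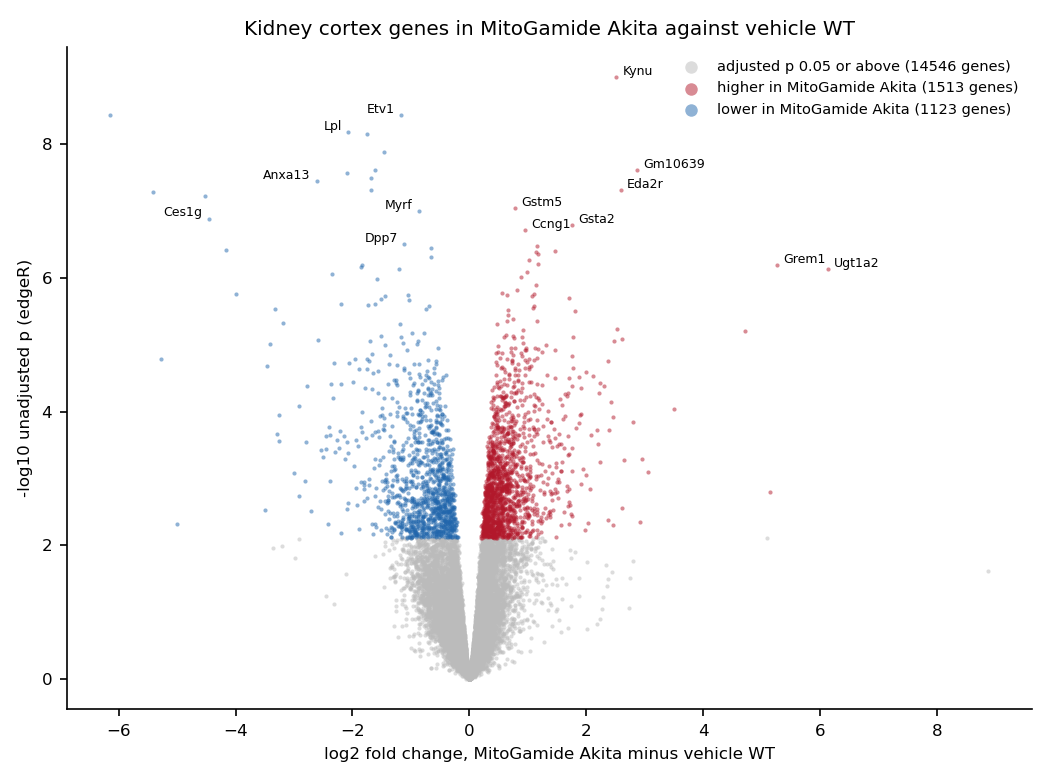
Each point is 1 of the 17182 genes tested, placed by its log2 fold change (MitoGamide Akita minus vehicle WT, horizontal axis) and the negative log10 of its unadjusted edgeR p (vertical axis). Red marks the 1513 genes called higher and blue the 1123 called lower, and Kynu has the smallest p.

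The gene with the smallest p was Kynu, which encodes kynureninase, a vitamin B6-dependent enzyme of tryptophan breakdown (ENSMUSG00000026866.16, chr2:43555329-43682715, plus strand in GRCm38). Its level was 36.6, 46.5, 34.9, 33.1 and 34.6 CPM in the 5 MitoGamide Akita libraries and 5.16, 8.28, 7.83, 5.17 and 5.99 CPM in the 5 vehicle WT libraries. Every Akita value lay far above every WT value, and the log2 fold change was 2.51 ± 0.15 (SE; edgeR adjusted p = 1.70e-05). Pdxk, pyridoxal kinase, which produces the active form of vitamin B6, was at 147, 205, 157, 189 and 215 CPM against 73.7, 79.6, 97.0, 79.1 and 81.0 CPM in WT. Again no values overlapped, with a log2 fold change of 1.15 ± 0.12 (edgeR adjusted p = 2.62e-04).

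Gsta2, an alpha-class glutathione transferase, was at 298, 338, 282, 278 and 390.3 CPM in MitoGamide Akita and 75.2, 115, 77.5, 75.8 and 126 CPM in vehicle WT. The lowest Akita library was thus more than 2-fold above the highest WT library, and the log2 fold change was 1.76 ± 0.17 (edgeR adjusted p = 1.44e-04). The mu-class transferase Gstm5 rose by less but very evenly, with 88.9 to 106 CPM against 55.4 to 62.7 CPM (log2 fold change 0.78 ± 0.07). The aldo-keto reductase Akr1c13 (1.46), the lysophospholipase-like gene Lyplal1 (1.14) and Gm10639 (2.87), a predicted gene beside Gsta2 on chromosome 9 whose reads could be shared with its neighbours, rose too (log2 fold changes).

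Eda2r, a receptor of the tumour necrosis factor receptor family and a target of p53, was at 4.78, 3.77, 2.90, 2.83 and 4.16 CPM in MitoGamide Akita and 0.818, 0.569, 0.551, 0.541 and 0.575 CPM in vehicle WT, without overlap (log2 fold change 2.59 ± 0.22, edgeR adjusted p = 6.39e-05). Cyclin G1, encoded by the p53 target Ccng1, stood at 236 to 301 CPM against 117 to 155 CPM (0.95 ± 0.09), and the polo-like kinase Plk2 at 13.1 to 15.6 CPM against 6.04 to 8.39 CPM (1.02 ± 0.11). In the same direction, Thbs1, thrombospondin 1, a matricellular protein that activates latent TGF-beta, was at 106, 118, 84.0, 105 and 109 CPM against 42.7, 51.9, 61.9, 54.3 and 51.9 CPM. The 2 groups did not overlap for any of these 4 genes. The chemokine Cxcl12 (1.17 ± 0.12) and the membrane repair gene Myof (1.18 ± 0.13) rose without overlap too (log2).

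Grem1 encodes gremlin 1, a secreted antagonist of bone morphogenetic proteins (chr2:113746164-113758646, minus strand in GRCm38). It was almost absent from WT cortex, at 0.377, 0.155, 0.0394, 0.120 and 0.431 CPM, and reached 2.90, 13.6, 4.46, 9.12 and 12.5 CPM in MitoGamide Akita. The animals of the treated group differed among themselves by more than 4-fold, but the lowest of them was well above the highest WT value, and the log2 fold change was 5.26 ± 0.57 (edgeR adjusted p = 3.48e-04). The largest increase among genes without overlap was in Ugt1a2, a UDP-glucuronosyltransferase, at 90.7, 331, 314, 63.1 and 814 CPM in MitoGamide Akita and 4.97, 4.76, 3.90, 4.51 and 4.93 CPM in WT. WT libraries agreed closely while the Akita libraries spread over more than 10-fold, and the fold change was 6.13 ± 0.67 (log2, edgeR adjusted p = 3.66e-04). Ugt1a genes have alternative first exons joined to common downstream exons, so reads from the common part may be divided among them with error. Mtarc1, a mitochondrial reductase of N-oxygenated compounds, was scarce, at 0.579, 1.22, 1.23, 0.707 and 5.38 CPM against 0.503, 0.155, 0.197, 0.120 and 0.0958 CPM (3.06 ± 0.70, edgeR adjusted p = 0.0144), and without replicate 5 of MitoGamide Akita its mean count was too low to be tested.

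**Figure D2:**
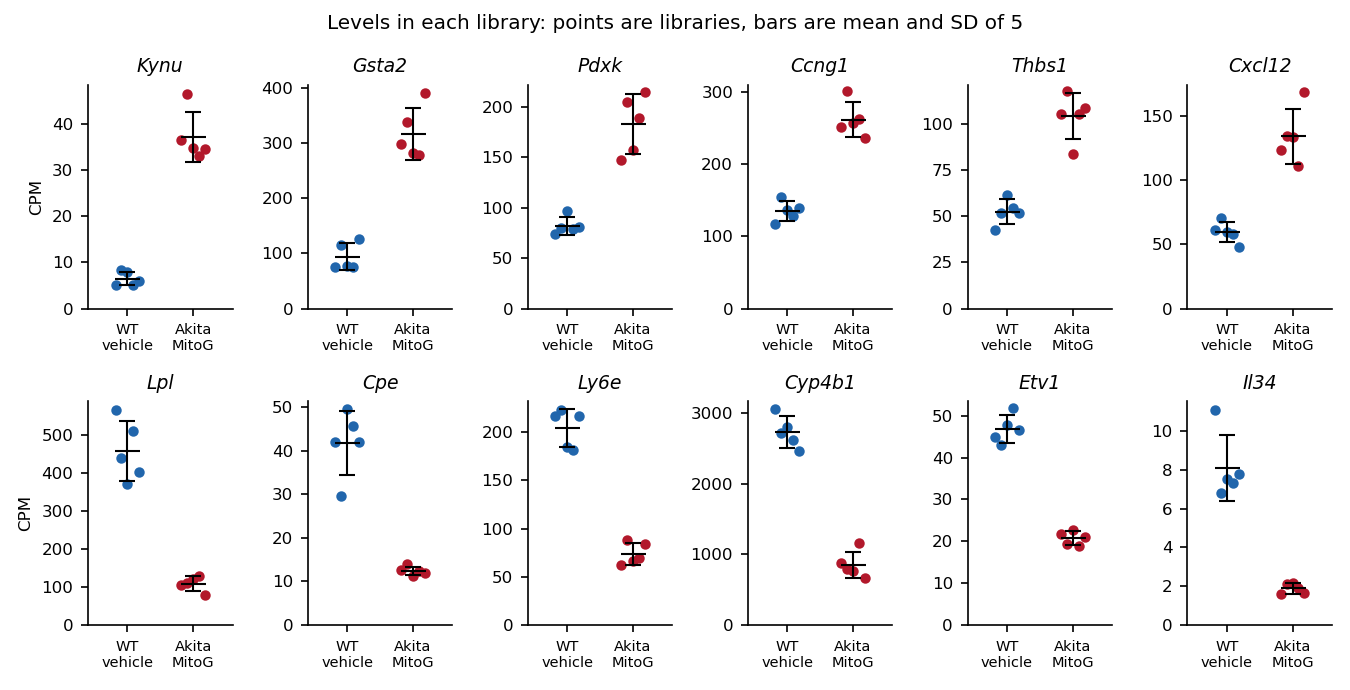
Levels of 12 leading genes in CPM (vertical axes, starting at 0) in the 5 vehicle WT libraries (blue) and the 5 MitoGamide Akita libraries (red), with the mean and SD of each group as bars. The upper row holds genes that rose and the lower row genes that fell, and in no panel do the groups overlap.

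The decreases included Lpl, which encodes lipoprotein lipase, which frees fatty acids from circulating triglyceride (chr8:68880491-68907448, plus strand in GRCm38). Its level was 105, 111, 122, 129 and 79.4 CPM in MitoGamide Akita and 566, 440.2, 372, 513 and 404 CPM in vehicle WT, a log2 fold change of -2.07 ± 0.15 (edgeR adjusted p = 2.45e-05). The lowest WT library held more than 2-fold the highest Akita value. Il34, a ligand of the macrophage receptor Csf1r, fell from 11.1, 6.78, 7.52, 7.33 and 7.81 CPM in WT to 1.59, 2.11, 2.18, 1.91 and 1.63 CPM (-2.09 ± 0.17 on the log2 scale). Carboxypeptidase E (Cpe), an enzyme of prohormone processing, was at 12.5, 13.9, 11.3, 12.4 and 12.1 CPM against 42.0, 29.8, 49.6, 45.7 and 42.0 CPM. Both genes kept the groups apart in every library.

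The fatty acid hydroxylase Cyp4b1 was the most abundant of the leading decreases, at 669 to 1155 CPM in MitoGamide Akita and 2459.9 to 3049.8 CPM in WT (-1.68 ± 0.14). The ETS transcription factor Etv1 (-1.17 ± 0.08), the interferon-inducible surface protein gene Ly6e (-1.47 ± 0.11), the neutral amino acid transporter gene Slc6a15 (-1.62 ± 0.13) and the adipokine-like gene C1qtnf3 (-1.68 ± 0.14) fell without overlap. So did Anxa13, an epithelial annexin (-2.61 ± 0.22), Dpp7, a lysosomal dipeptidyl peptidase (-1.11 ± 0.11), and Myrf, a membrane-bound transcription factor (-0.87 ± 0.08), all as log2 fold changes. The carboxylesterase Ces1g was at 0.724, 0.831, 1.00, 0.424 and 0.652 CPM against 21.1, 27.6, 9.37, 7.03 and 17.2 CPM (log2 fold change -4.46 ± 0.42), again without overlap.

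Some transcripts had all but gone from MitoGamide Akita cortex. The pseudogene Gm6300 gave 22 counts over the 5 Akita libraries, with none in 1 of them, and 2004 over the 5 WT libraries. AA536875, annotated as a processed transcript, gave 6 against 351 counts, with none in 2 Akita libraries, and the neurexin-related gene Cntnap5a gave 24 against 704. The alcohol dehydrogenase pseudogene Adh6-ps1 gave 2 counts, all in 1 Akita library, against 122. No fold is stated for these near-zero levels. Gm6300, AA536875 and Cntnap5a were near zero in the other Akita groups too. Scaled over all 40 libraries, mean Gm6300 was 0.291 CPM in vehicle Akita, 0.184 in water Akita and 0.183 in MitoQ Akita (vehicle WT 21.7). In the same order AA536875 was at 0.131, 0.234 and 0.155 CPM (vehicle WT 3.77). Cntnap5a was at 0.44, 0.563 and 0.574 CPM (vehicle WT 7.6). Adh6-ps1 ranged from 0.106 to 0.488 CPM in vehicle Akita and from 0.844 to 2.87 in vehicle WT. All 30 leading genes named above, the 15 with the smallest p in each direction among those without overlap, were still called when any 1 of the 10 libraries was left out, while Gstm5 lost its call in a fit of all 40 libraries.

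Gene lists were then read against the shares of all genes tested, 8.81% higher and 6.54% lower, with a median log2 fold change of 0.00. The lists and their members were chosen with earlier results of these data known, and they hold leading genes named above, such as Kynu, Pdxk and Eda2r. A list share above that of all genes is therefore a description and not independent evidence. A range in brackets after a count is the lowest and highest count over 10 fits that each left out 1 library. Wherever such a range reached more than 1.5-fold below the count, leaving out replicate 1 or replicate 4 of vehicle WT was among the fits that did so. For a gene named with its value whose call was kept in fewer than 9 of these fits, the number is given. In the glucose and fructose transporter list, 6 (3 to 5) of 14 tested members rose and the median was 0.41. Slc5a10, a sodium-coupled carrier of mannose and fructose, was at 145, 233, 159, 241 and 248 CPM against 82.8, 56.9, 98.1, 97.6 and 77.3 CPM in WT, without overlap (1.31 ± 0.18, edgeR adjusted p = 0.00189). The urate and fructose carrier Slc2a9 rose by 1.10 ± 0.18 and the fructose carrier Slc2a5 by 1.16 ± 0.23 on the log2 scale, both without overlap. Slc2a2, the basolateral glucose exit route of the proximal tubule, rose by 0.51 ± 0.16 (edgeR adjusted p = 0.0476), a call that was kept in 2 of 10 fits with 1 library left out, and 0.33 without replicate 5. It was lost with RLE normalisation, with a replicate block and in a fit of all 40 libraries. Slc5a2, the main apical glucose reabsorber (SGLT2), was at 204 to 279.8 CPM against 269.8 to 339 CPM and was not called (-0.29 ± 0.10, edgeR adjusted p = 0.0743). Without replicate 5 it was, at -0.32 (edgeR adjusted p = 0.0432), and so it was by DESeq2 (adjusted p = 0.0337).

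Among glycolytic enzymes the called changes were increases. Of 23 tested, 10 (6 to 10) rose and 0 fell, where 1 was lower at an unadjusted p under 0.05 and 0 by DESeq2, with a median of 0.28. Enolase 1 (Eno1) was at 836, 882, 704, 927 and 979 CPM against 472, 516, 569, 555 and 524 CPM, which placed every Akita value above every WT value (0.72 ± 0.10, edgeR adjusted p = 0.00197). Both pyruvate kinases rose, Pkm by 0.72 ± 0.14 and Pklr by 0.82 ± 0.14, as did Gapdh by 0.48 ± 0.11 (log2). The list's count was 7 in a fit of all 40 libraries, which did not call Gapdh. Of 8 gluconeogenic genes, 2 (2 to 3) rose, and without replicate 5 2 were called higher and 2 lower. Pck1, the cytosolic phosphoenolpyruvate carboxykinase, was at 3054, 3639.7, 2475, 4033 and 8342 CPM against 1081, 1015, 2630.1, 1767 and 972 CPM, with overlap between the lowest Akita and highest WT libraries. Its log2 fold change of 1.53 ± 0.36 (edgeR adjusted p = 0.0172) became 1.14 without replicate 5, the library with the highest value. G6pc, the last step of glucose release, depended on that animal, as its log2 fold change was -0.21 ± 0.29 (edgeR adjusted p = 0.642) with replicate 5 and -0.63 (edgeR adjusted p = 0.0192) without it.

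**Figure D3:**
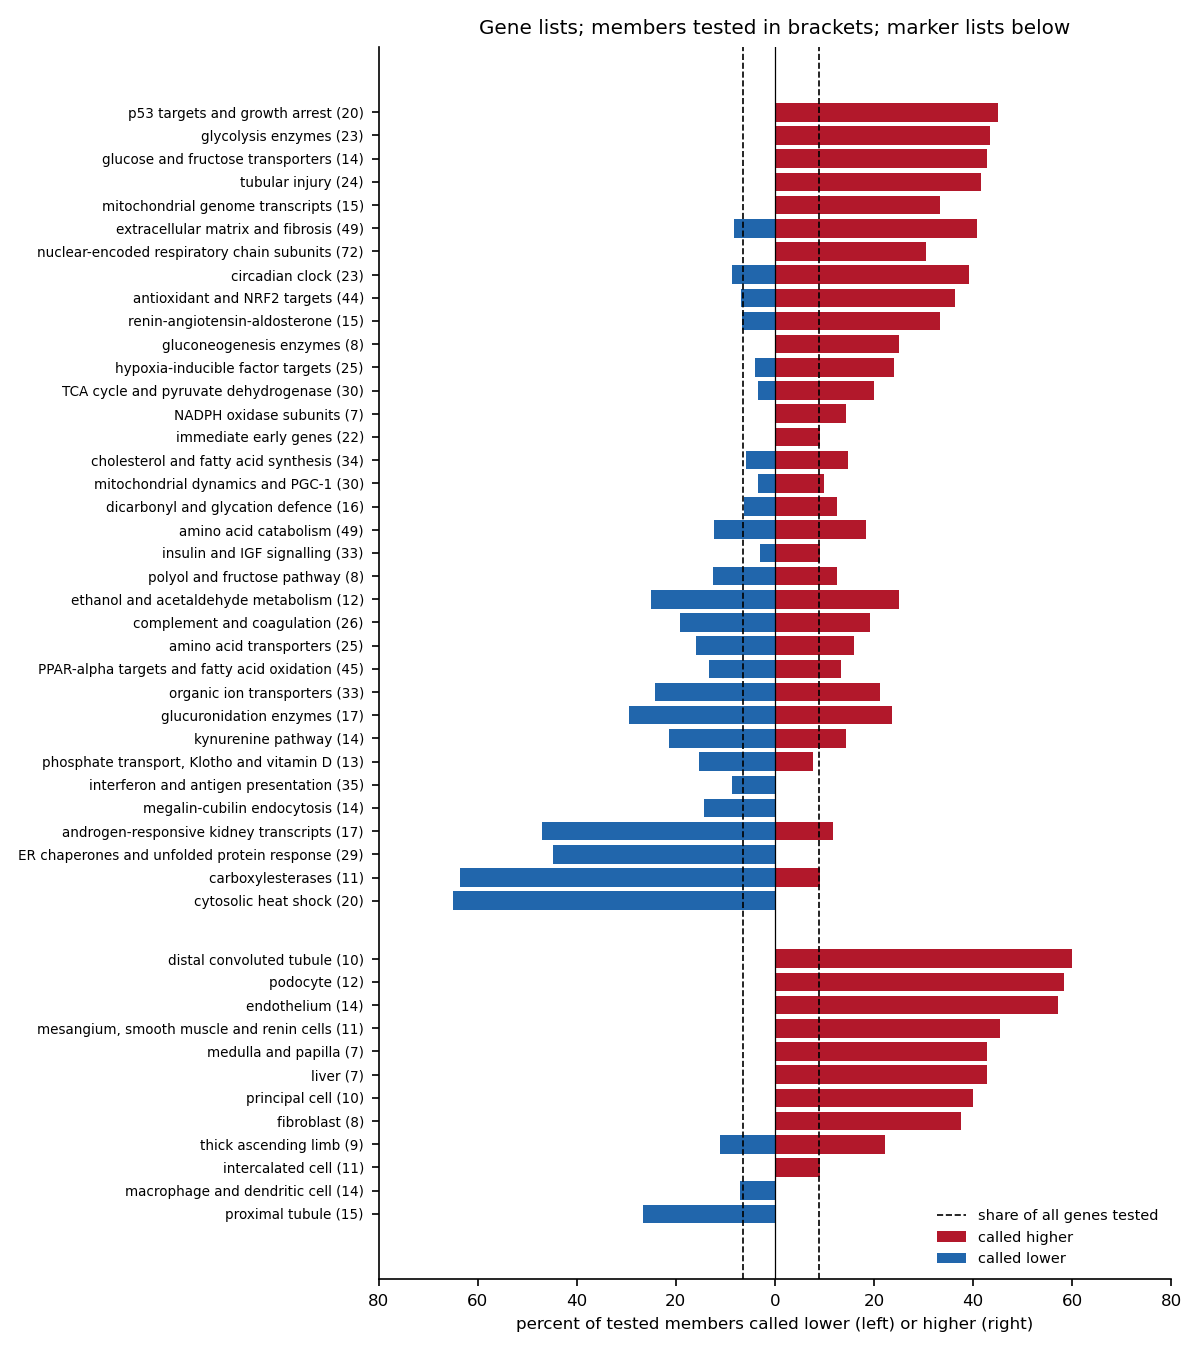
Percent of tested members of each gene list called higher (red, right) or lower (blue, left) in MitoGamide Akita, for lists with at least 7 members tested. Dashed lines give the shares of all genes tested (8.81% and 6.54%), and the heat shock and ER chaperone lists hold called decreases alone.

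Enzymes that detoxify dicarbonyls, the class of compound that MitoGamide traps, were read next. Glo1, glyoxalase 1, the first enzyme of methylglyoxal removal, was at 54.2, 62.7, 59.6, 56.6 and 53.5 CPM in MitoGamide Akita and 67.3, 68.7, 63.0, 63.4 and 61.9 CPM in vehicle WT, a log2 fold change of -0.18 ± 0.07 (edgeR adjusted p = 0.0972), and Hagh, glyoxalase 2, differed by 0.24 ± 0.08 (edgeR adjusted p = 0.0607). Neither of these passed, but Hagh did without replicate 5, at 0.25 (edgeR adjusted p = 0.0368), and by DESeq2 (adjusted p = 0.0306). Of 16 tested genes of dicarbonyl and glycation defence, 2 (1 to 3) rose and 1 fell, together 18.8% against 15.3% of all genes, and by DESeq2 4 rose. Aldh1a1, an aldehyde dehydrogenase, rose from 6.04, 7.30, 5.39, 4.39 and 13.8 CPM to 27.5, 52.1, 29.2, 29.5 and 69.0 CPM (2.48 ± 0.34, edgeR adjusted p = 0.00177), Lgals3, a galectin that binds glycated proteins, rose by 0.73 ± 0.18, and Fn3k, a kinase that removes early glycation products, fell by 0.47 on the log2 scale (edgeR adjusted p = 0.0052).

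In the kynurenine pathway list, which also holds the salvage gene Nampt, 2 of 14 tested genes rose and 3 fell. Beside Kynu, the increase was in Nampt, which salvages nicotinamide for NAD (1.01 ± 0.15, edgeR adjusted p = 0.00234). The decreases were in Aadat, an aminotransferase that forms kynurenic acid, at 59.5 to 87.8 CPM against 110.3 to 172 CPM (-0.87 ± 0.13), in Afmid, the formamidase that yields kynurenine (-0.72 ± 0.17), and in Acmsd, which diverts the pathway away from NAD (-0.39 ± 0.12, kept in 3 of 10 fits with 1 library left out and not without replicate 5, at -0.32 with edgeR adjusted p = 0.0535, nor in a fit of all 40 libraries). In the list of amino acid catabolism, 9 (5 to 12) of 49 rose and 6 (3 to 7) fell, and in a fit of all 40 libraries 7 and 3. Bhmt, betaine-homocysteine methyltransferase, was at 16.1, 17.9, 16.5, 12.3 and 84.8 CPM against 4.09, 3.31, 3.58, 5.29 and 4.88 CPM, and its log2 fold change of 2.80 ± 0.52 was 1.90 without replicate 5. Glud1, glutamate dehydrogenase, rose by 0.94 ± 0.24, or by 0.60 without replicate 5, and its call was kept in 7 of 10 fits with 1 library left out. Among the transporters, Slc38a3, the glutamine carrier that feeds renal ammonia production, rose by 2.61 ± 0.36 (log2). Cbs, which commits homocysteine to cysteine, fell from 95.3 to 170.4 CPM to 36.3 to 90.2 CPM (-1.01 ± 0.22).

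Among PPAR-alpha targets and oxidation enzymes, 6 (2 to 8) of 45 rose and 6 (1 to 8) fell, and in a fit of all 40 libraries 3 and 3. Cyp4a14, a fatty acid omega-hydroxylase, was at 281, 544, 518, 415 and 1600.2 CPM in MitoGamide Akita and 11.4, 56.4, 70.7, 31.9 and 126 CPM in WT, without overlap. The log2 fold change was 3.50 ± 0.62 (edgeR adjusted p = 0.00471), and 2.88 when replicate 5, the highest library, was left out. Its homologue Cyp4a10 rose by 1.50 ± 0.37, or by 1.03 without that library, whereas Cyp4a12a, the form that depends on androgen in male kidney, fell from 82.4 to 210.2 CPM to 8.80 to 53.7 CPM (-1.90 ± 0.39, edgeR adjusted p = 0.00881). These Cyp4a genes are similar in sequence, and reads could be divided between them with error. The fatty acid importer Cd36 fell by 0.80 (edgeR adjusted p = 0.0411, kept in 2 of 10 fits with 1 library left out and lost in a fit of all 40 libraries), and the ketone body enzyme Bdh1 fell by 1.09, on the log2 scale.

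Genes for mitochondrial proteins rose in part. Among nuclear genes for respiratory chain subunits the increases were small, with 22 of 72 called higher and a median of 0.15. Cox7b, a subunit of complex IV, was at 168, 169, 168, 158 and 176 CPM against 110.2, 133, 121, 103 and 115 CPM (0.53 ± 0.08, edgeR adjusted p = 0.00234). Ndufv2 of complex I rose by 0.53 ± 0.09, Uqcrq of complex III by 0.47 ± 0.07 and Atp5o of ATP synthase by 0.42 ± 0.07 (log2). In none of these 4 genes did the groups overlap. The count depended on the libraries and the fit, with 6 to 30 genes called when 1 library was left out and 2 when all 40 libraries entered 1 fit, which did not call Cox7b, Ndufv2 or Atp5o.

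Of 15 transcripts of the mitochondrial genome, 5 (2 to 7) were called higher, the ribosomal RNAs mt-Rnr1 (0.71 ± 0.19) and mt-Rnr2 (0.76 ± 0.22) and the complex I subunits mt-Nd3 (0.60 ± 0.09), mt-Nd5 (0.61 ± 0.16) and mt-Nd6 (0.59 ± 0.13). DESeq2 called 11 higher and a fit of all 40 libraries 1, mt-Nd3, and with a replicate block mt-Nd3 and mt-Nd6 kept their calls. The calls of mt-Rnr1, mt-Rnr2 and mt-Nd5 were kept in 4, 2 and 6 of 10 fits with 1 library left out. As a share of all counts, the mitochondrial genome gave 30.7% ± 2.79 in MitoGamide Akita and 21.8% ± 1.03 in vehicle WT (SD, n = 5), with no overlap (2-sided exact permutation test, p = 0.00794, the smallest that 5 against 5 can give, and 0.0609 when adjusted over 23 sums compared). The share ranged from 21.6% to 28.7% in vehicle Akita and from 24.6% to 27.8% in MitoGamide WT. It spread more widely in the groups without ethanol, from 24.2% to 43.1% in water Akita, 14.3% to 37.3% in water WT, 25.5% to 36.7% in MitoQ Akita and 24.7% to 49.2% in MitoQ WT. The 2 ribosomal RNAs carried 24.7% and 16.7% of all counts in the main groups, and the 13 mRNAs alone stood at 60455 ± 12427 CPM of all counts against 51716 ± 2719, a difference that passed at an unadjusted level (exact permutation p = 0.0476, adjusted 0.0842) and not without replicate 5 (exact permutation p = 0.0873). The log2 difference of this mRNA sum was 0.21 on library totals and 0.39 with TMM-scaled library sizes (exact permutation p = 0.00794, unadjusted). The coactivator Ppargc1a, a regulator of mitochondrial biogenesis, rose by 0.38 ± 0.10 (log2, edgeR adjusted p = 0.0272), a call kept in 6 of 10 fits with 1 library left out.

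In the antioxidant list 16 (8 to 18) of 44 tested genes rose and 3 (1 to 3) fell, with a median of 0.25. A single fit of all 40 libraries called 11 higher and 0 lower. Ephx1, microsomal epoxide hydrolase, was at 39.1, 58.7, 40.9, 38.5 and 89.1 CPM against 13.0, 18.3, 15.7, 13.3 and 15.9 CPM (1.80 ± 0.22, edgeR adjusted p = 8.74e-04). Nqo1, a quinone reductase and classical NRF2 target, was at 35.1 to 83.3 CPM against 27.7 to 37.3 CPM (0.94 ± 0.18), and transketolase (Tkt), an enzyme of the pentose phosphate route, at 188 to 208 CPM against 125 to 141 CPM (0.56 ± 0.07). The 3 that fell were the superoxide dismutase gene Sod1 (-0.39 ± 0.11), the glutathione synthesis gene Gclm (-0.34 ± 0.10) and ferritin light chain Ftl1 (-0.40 ± 0.09), of which Sod1 kept its call in 3 and Gclm in 2 of 10 fits with 1 library left out.

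Glucuronidation enzymes were divided, 4 (3 to 5) of 17 up and 5 down (3 and 3 in a fit of all 40 libraries), with Ugt1a10 rising beside Ugt1a2 (log2 4.72 ± 0.63). Carboxylesterases fell in 7 (3 to 7) of 11 members (median -0.54) and 1 rose, Ces2e (0.57 ± 0.17, with overlap, kept in 3 of 10 fits with 1 library left out and lost in a fit of all 40 libraries). Among those that fell were Ces1f from 432 to 526 CPM to 79.0 to 324 CPM, kept in 8 of 10 fits with 1 library left out, and Ces2b from 8.49 to 12.7 CPM to 2.93 to 5.41 CPM. Of 33 organic ion transporters, 7 (2 to 7) rose and 8 (3 to 10) fell. Slc22a7, which carries organic anions into the tubule cell, was at 2.68, 8.81, 5.91, 18.8 and 1.47 CPM against 82.5, 39.2, 63.9, 59.6 and 17.8 CPM (-2.79 ± 0.56, edgeR adjusted p = 0.00824), with the lowest WT library just under the highest Akita library, and the urate reabsorber Slc22a12 at 354 to 939.8 CPM against 1005 to 1219.5 CPM (-0.78 ± 0.20). The efflux pumps Abcc3 (1.71 ± 0.27) and Abcc4 (0.96 ± 0.23) rose on the log2 scale.

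Of 17 tested transcripts that respond to androgen in the male mouse kidney, 8 (5 to 10) fell and 2 (1 to 3) rose, with a median of -0.71. Kap, kidney androgen-regulated protein, was at 3157, 3363, 1657, 6470.2 and 395 CPM against 11029.5, 8706, 10203, 10283 and 7059.9 CPM. The Akita libraries ranged over more than 10-fold, all below the lowest WT library, and the log2 fold change was -1.65 ± 0.51 (edgeR adjusted p = 0.0469). Slco1a1, an organic anion carrier, was at 87.1, 61.5, 18.6, 122 and 9.86 CPM against 406, 371, 245, 255 and 417 CPM (-2.50 ± 0.53), and Odc1, ornithine decarboxylase, at 144 to 414 CPM against 571 to 856 CPM (-1.13 ± 0.23). The steroid dehydrogenase Hsd17b11 (-1.18 ± 0.15), the amino acid carrier Slc7a13 (-1.52 ± 0.46) and the transporter Slc22a30 (-1.44 ± 0.37) fell too, while the prolactin receptor gene Prlr (1.69 ± 0.33) and Slc7a12 (2.03 ± 0.59), both more abundant in the female kidney, rose. In Kap, Slc7a13 and Slc22a30 the lowest Akita value came from 1 library, replicate 5, without which Kap was at -1.37 (edgeR adjusted p = 0.0095) and Slc7a13 at -1.23 (edgeR adjusted p = 2.29e-04). The calls of Kap, Slc7a13 and Slc7a12 were each kept in 2 of 10 fits with 1 library left out, and that of Slc22a30 in 6. Odc1 lost its call in a fit of all 40 libraries and Slc7a12 with a replicate block.

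Many chaperones of the endoplasmic reticulum (ER) and of the cytosol fell. Of 29 tested genes of the ER list, 13 (11 to 16) fell, 11 of them without overlap, and the median was -0.37. By edgeR 0 were called higher, at an unadjusted p under 0.05 1 was, and by DESeq2 1 was. The heat shock list holds cytosolic chaperones and also the mitochondrial Hspd1 and Hspe1. Of its 20 genes, 13 (11 to 13) fell, 11 of them without overlap (median -0.53), and the same counts of increases were found, 0 by edgeR, 1 unadjusted and 1 by DESeq2. Without replicate 5, 16 and 13 genes fell, and 1 gene of the heat shock list was called higher. A fit of all 40 libraries called 11 and 9 lower, without Edem1, Hspa8, Hspd1 and Hspe1, and with a replicate block Hsp90b1 and Hspd1 lost their calls.

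In the unfolded protein response, cells that accumulate misfolded protein in the ER raise chaperone genes through ATF6 and XBP1, factors that recognise the ER stress element, whereas misfolding in the cytosol acts through HSF1 and the heat shock element. RefSeq promoters (GRCm38.p6, 250 bases before the gene start) were searched on both strands for these motifs. The ER stress element, spelled CCAAT and CCACG with any 9 bases between them, was found in 0.13% of 27025 genes with a promoter. Among the ER list it was in 5 of the 11 genes with a promoter that fell (Creld2, Hsp90b1, Hspa5, Pdia6 and Syvn1) and in 3 of the 15 that were not called (Calr, Canx and Dnajc3). The heat shock element, spelled TTC, GAA and TTC with any 2 bases between neighbours, was in 0.514% of all genes, in 2 of the 10 heat shock genes with a promoter that fell (the mitochondrial Hspd1 and Hspe1, neighbours that face away from a common promoter), and in 0 of the 5 that were not called. Both lists were made of genes of these responses, so their shares beside that of all genes follow from the choice of list. Of all tested genes with a promoter, the ER stress element was in 6 of 691 that fell, 1 of 1122 that rose and 12 of 9913 not called. The heat shock element was in 5, 4 and 47 of them. A match describes the letters only. Promoters of 5 of the genes that fell are printed to show where the motif lies before the start site, with the motif in capitals. Hspa5 is chr2:34771840-34772089 on the plus strand, Creld2 chr15:88819396-88819645 plus, Pdia6 chr12:17266339-17266588 plus, Hsp90b1 chr10:86705445-86705694 minus, with 2 matches, and Hspe1 chr1:55087898-55088147 plus, with 2 overlapping matches to the heat shock element.
Hspa5: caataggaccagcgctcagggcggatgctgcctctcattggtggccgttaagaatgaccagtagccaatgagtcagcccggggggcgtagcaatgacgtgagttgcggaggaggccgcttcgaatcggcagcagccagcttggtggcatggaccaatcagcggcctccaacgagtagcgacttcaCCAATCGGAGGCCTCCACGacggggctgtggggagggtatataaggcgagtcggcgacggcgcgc
Creld2: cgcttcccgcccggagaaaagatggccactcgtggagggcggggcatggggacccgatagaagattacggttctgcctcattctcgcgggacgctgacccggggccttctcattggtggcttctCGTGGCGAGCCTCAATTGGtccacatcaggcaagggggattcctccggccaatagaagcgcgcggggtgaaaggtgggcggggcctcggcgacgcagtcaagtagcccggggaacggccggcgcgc
Pdia6: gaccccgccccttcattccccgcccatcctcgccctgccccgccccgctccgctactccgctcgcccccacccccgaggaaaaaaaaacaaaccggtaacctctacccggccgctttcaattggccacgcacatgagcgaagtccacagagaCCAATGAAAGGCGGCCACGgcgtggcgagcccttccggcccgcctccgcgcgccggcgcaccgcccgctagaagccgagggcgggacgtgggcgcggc
Hsp90b1: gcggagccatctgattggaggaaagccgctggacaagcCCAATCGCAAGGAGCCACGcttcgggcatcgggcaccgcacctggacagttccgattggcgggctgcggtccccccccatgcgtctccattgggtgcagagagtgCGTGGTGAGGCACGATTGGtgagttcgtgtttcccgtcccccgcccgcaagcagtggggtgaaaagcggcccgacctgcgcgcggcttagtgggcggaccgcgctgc
Hspe1: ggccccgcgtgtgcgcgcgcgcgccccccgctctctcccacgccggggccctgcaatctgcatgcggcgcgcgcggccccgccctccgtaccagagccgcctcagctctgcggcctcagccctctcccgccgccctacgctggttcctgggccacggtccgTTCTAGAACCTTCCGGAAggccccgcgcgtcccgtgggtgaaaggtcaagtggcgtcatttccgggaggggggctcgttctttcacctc

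Hspa5, the ER chaperone BiP, was at 243, 276, 285, 308 and 152 CPM in MitoGamide Akita and 349, 637, 409.7, 478 and 595 CPM in vehicle WT. All Akita values were below all WT values, with a log2 fold change of -0.97 ± 0.20 (edgeR adjusted p = 0.00999). Creld2, a secreted ER stress protein, was at 10.7, 12.0, 13.1, 15.8 and 7.25 CPM against 15.9, 33.9, 28.5, 25.5 and 34.8 CPM (-1.23 ± 0.22, edgeR adjusted p = 0.00527), and its highest Akita and lowest WT values almost met. Sdf2l1, a component of ER chaperone complexes, showed the largest drop of the list, from 6.46 to 12.0 CPM to 2.53 to 3.51 CPM (-1.51 ± 0.20). The ER neurotrophic factor Manf (-1.11 ± 0.19), the disulfide isomerase Pdia6 (-0.74 ± 0.13), the ER form of Hsp90, Hsp90b1 (-0.50 ± 0.13), and the degradation factors Edem1 (-0.54 ± 0.08) and Syvn1 (-0.55 ± 0.11, with overlap) fell on the log2 scale.

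In the cytosol, Hsph1, an Hsp110 co-chaperone, was at 60.7, 65.9, 68.5, 80.5 and 33.7 CPM against 122, 208, 145, 154 and 130.5 CPM (-1.30 ± 0.21, edgeR adjusted p = 0.00306). The abundant chaperones Hspa8 (-0.57 ± 0.14) and Hsp90ab1 (-0.68 ± 0.11) and the Hsp40 gene Dnajb1 (-0.86 ± 0.15) fell on the log2 scale. The mitochondrial pair Hspd1 and Hspe1, chaperonin 60 and its lid, stood at -0.36 ± 0.11 and -0.52 ± 0.10, the call of Hspd1 being kept in 3 of 10 fits with 1 library left out. The inducible Hspa1b was at 14.6, 19.6, 17.2, 25.1 and 12.1 CPM against 25.4, 121, 62.7, 61.6 and 21.0 CPM. Its groups overlapped, since 1 WT library lay within the Akita range and another just above it, and it has a near-identical copy, Hspa1a, with which reads could be shared.

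**Figure D4:**
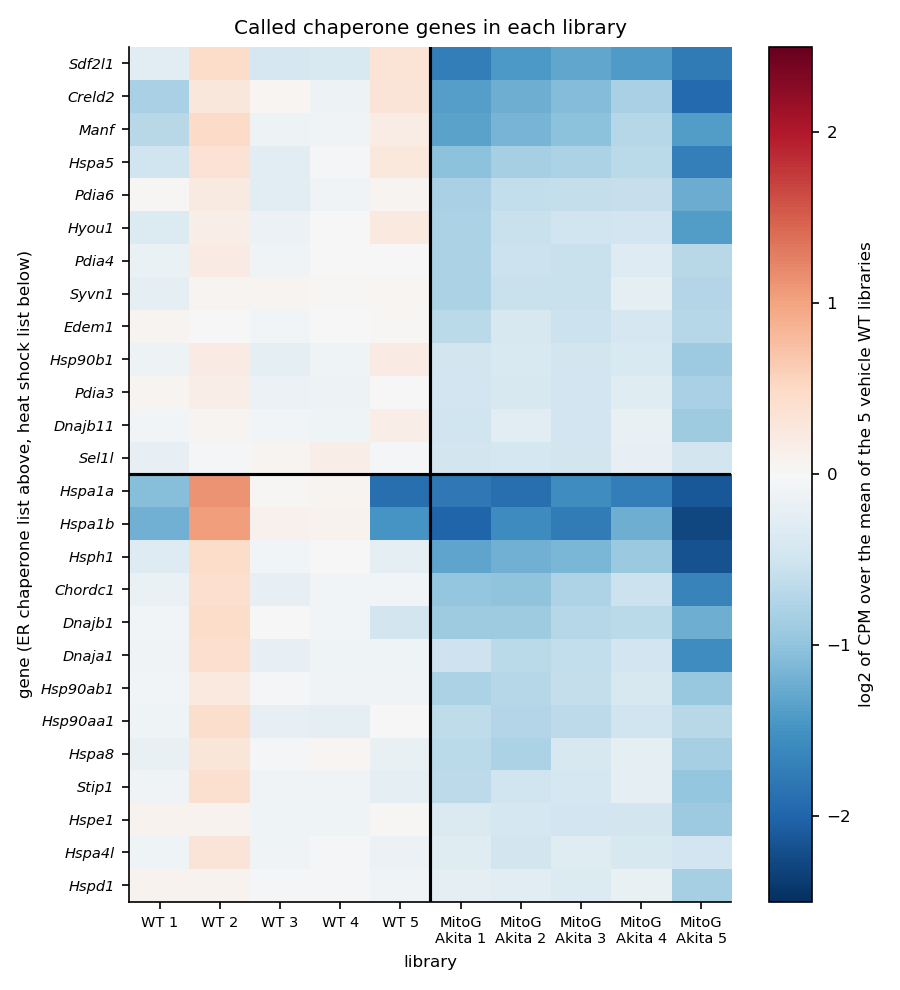
Levels of the 26 called chaperone genes in each of the 10 libraries (columns), as the log2 of CPM over the mean of the 5 vehicle WT libraries. Blue stands for values below that mean, and it fills the MitoGamide Akita columns, with replicate 5 the deepest in Hspa5, Creld2 and Hsph1.

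Matrix genes rose in 20 (14 to 22) of 49 tested members and fell in 4, with a median of 0.31. Fn1, fibronectin, a scaffold of fibrotic matrix, was at 86.7, 126, 57.9, 73.0 and 72.1 CPM in MitoGamide Akita and 35.2, 46.7, 34.3, 26.8 and 41.3 CPM in vehicle WT, without overlap (1.17 ± 0.20, edgeR adjusted p = 0.00387). Sparc, a collagen-binding protein, was at 86.1 to 120.4 CPM against 47.6 to 75.0 CPM (0.83 ± 0.13), and the basement membrane linker Nid1 rose by 0.64 ± 0.12. Ccn2, connective tissue growth factor, was at 102, 111, 69.9, 79.9 and 153 CPM against 49.9, 59.5, 63.3, 55.8 and 54.0 CPM (0.87 ± 0.18, edgeR adjusted p = 0.0088). Some markers of cells that lay down matrix rose beside this list, and their part in it was not tested. Of 8 fibroblast markers 3 (2 to 3) rose (Dcn, Pdgfra and Lum, median of the list 0.27, or 0.11 to 0.51 with 1 library left out), and of 11 markers of mesangium, smooth muscle and renin cells 5 (1 to 5) rose (Rgs5, Cspg4, Tagln, Gata3 and Acta2, median 0.42), 3 in a fit of all 40 libraries. Their summed levels overlapped, at 159 to 256 CPM of all counts against 126 to 205 and at 204 to 235 against 170.2 to 228 (exact permutation p = 0.119 and 0.0794).

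Type IV collagen, the network of the basement membrane, divided by chain. Col4a2 rose by 0.51 ± 0.12 on the log2 scale (edgeR adjusted p = 0.0184) and its partner Col4a1 differed by 0.23 ± 0.10 (edgeR adjusted p = 0.148), with overlapping groups. Col4a3 and Col4a4, chains of the mature glomerular basement membrane, fell, Col4a3 from 241 to 359 CPM to 189.5 to 240.4 CPM (-0.50 ± 0.11) and Col4a4 from 259 to 324 CPM to 182 to 209.6 CPM (-0.57 ± 0.08). Timp3, an inhibitor of matrix metalloproteinases, fell by 0.60 (edgeR adjusted p = 0.0149).

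Tubular injury markers rose in 10 (6 to 11) of 24 tested members. Spp1, osteopontin, was at 685, 901, 808, 586 and 1488 CPM against 252, 425, 337, 300.0 and 295 CPM (1.47 ± 0.23, edgeR adjusted p = 0.00292). Lcn2, which encodes neutrophil gelatinase-associated lipocalin, was scarce, at 0.869, 5.60, 1.34, 0.990 and 4.07 CPM against 0.252, 0.725, 0.354, 0.421 and 0.287 CPM (2.64 ± 0.57), while clusterin (Clu, 0.70 ± 0.16), vimentin (Vim, 0.66 ± 0.08) and keratin 18 (Krt18, 1.05 ± 0.26) rose on the log2 scale. Havcr1, kidney injury molecule 1, was near the limit of detection at 0.0815 to 0.776 CPM against 0.361 to 1.06 CPM and was not called (edgeR adjusted p = 0.262). Cst3, cystatin C, did not pass either (0.17 ± 0.09, edgeR adjusted p = 0.247). The list's median was 0.67 with and 0.23 without replicate 5, although 11 members were called higher and 1 lower without it.

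Of 20 p53 targets tested, 9 (6 to 9) rose, and without replicate 5 9 were called higher and 1 lower. Besides Eda2r, Ccng1 and Plk2 they included Mdm2, the ubiquitin ligase that restrains p53 (0.41 ± 0.09), the RNA-binding gene Zmat3 (0.55 ± 0.09) and Phlda3, an inhibitor of Akt (1.35 ± 0.26). Cdkn1a, the cell cycle inhibitor p21, was at 9.56, 11.6, 9.76, 14.4 and 56.4 CPM against 5.35, 5.80, 8.90, 5.59 and 4.41 CPM, and the groups did not overlap. Its log2 fold change was 1.73 ± 0.48 with replicate 5, the highest library, and 0.90 without it (edgeR adjusted p = 0.0315 and 0.00785). Its call was kept in 6 of 10 fits with 1 library left out, and was lost without replicate 1, 2, 4 or 5 of vehicle WT and with a replicate block.

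In the renin-angiotensin list, Ace, the enzyme that forms angiotensin II, fell from 252, 157, 187, 206 and 121 CPM to 41.4, 80.9, 68.3, 127 and 28.9 CPM (-1.41 ± 0.34, edgeR adjusted p = 0.0173), with the highest Akita library just inside the WT range. The precursor angiotensinogen (Agt) rose by 1.24 ± 0.27 and aminopeptidase A (Enpep) by 0.49 ± 0.08 on the log2 scale, the latter not being called in a fit of all 40 libraries. Genes of the complement and coagulation list moved both ways, 5 (3 to 6) of 26 up and 5 (4 to 6) down. Masp1, a protease of the lectin pathway, rose from 1.26 to 1.71 CPM to 3.46 to 6.48 CPM (1.70 ± 0.20) while factor B (Cfb) fell from 303 to 377 CPM to 159 to 235 CPM (-0.78 ± 0.10). Interferon and antigen presentation genes fell in 3 of 35 (5 in a fit of all 40 libraries), near the share of all genes.

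Clock genes moved in both directions. Of 23 tested, 9 (7 to 10) rose and 2 (1 to 3) fell. Dbp, an output gene of the clock, was at 53.7, 53.3, 43.1, 24.4 and 17.6 CPM against 1.76, 11.4, 15.7, 12.0 and 8.43 CPM (1.95 ± 0.44, edgeR adjusted p = 0.0137), without overlap, and the repressors Ciart (2.21 ± 0.37), Per2 (0.85 ± 0.18), Bhlhe41 (1.90 ± 0.34) and Cry2 (1.35 ± 0.31, or 0.86 without replicate 5) rose with it. The activators Arntl (-1.52 ± 0.40) and Npas2 (-2.13 ± 0.46) fell on the log2 scale, the call of Arntl being kept in 6 of 10 fits with 1 library left out. The hour at which kidneys were collected is not given in the sources used here.

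Markers of single nephron segments and cell types moved with these changes, and their part in them was not tested. The proximal tubule markers summed to 12547 to 17286 CPM of all counts in MitoGamide Akita and 22164 to 25063 in vehicle WT, without overlap (exact permutation p = 0.00794, adjusted 0.0609), and 4 (1 to 6) of 15 fell (7 by DESeq2), among them Lrp2 (-0.59 ± 0.13, not called in a fit of all 40 libraries) and the phosphate carrier Slc34a1 (-0.54 ± 0.15, kept in 6 of 10 fits with 1 library left out). The log2 difference of this sum was -0.60 on library totals. The median of the 15 members, with TMM factors, was -0.19, and 4 of them lay above 0. These are different scales, so the gap between sum and median is not a property of the markers alone. For the mitochondrial mRNA sum, TMM-scaled library sizes moved the log2 difference from 0.21 to 0.39. In the distal convoluted tubule list 6 (3 to 7) of 10 rose. They were led by Calb1, the calcium buffer calbindin, at 573, 599.7, 493, 496 and 1379 CPM against 178, 356, 234, 224 and 284 CPM (1.47 ± 0.29, or 1.08 without replicate 5), and S100g, its small relative (1.03 ± 0.17), whereas Slc12a3, the cotransporter that defines the segment, was not called (0.12 ± 0.16, edgeR adjusted p = 0.645). Principal cell genes rose in 4 (4 to 5) of 10, with the water channel gene Aqp2 at 57.1 to 133 CPM against 37.6 to 57.4 CPM (1.12 ± 0.20) and the sodium channel subunit Scnn1g at 0.77 ± 0.12. Of 7 tested markers of medulla and papilla 3 (1 to 4) rose, Aqp2, Cldn4 and Bdkrb2, with a median of 0.76 with TMM factors. The list's summed level was 408 to 903 CPM of all counts against 631 to 861, with overlap (log2 difference -0.18 on library totals, exact permutation p = 0.46).

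Some glomerular and vascular genes rose too. Of 12 podocyte genes 7 (2 to 9) were higher, 1 of them without overlap, Cdkn1c, a cell cycle inhibitor (1.20 ± 0.20). Of 14 endothelial genes 8 (5 to 8) were higher, for instance Plvap (0.90 ± 0.13), Cdh5 (0.76 ± 0.13) and Pecam1 (0.75 ± 0.15), all log2. The summed endothelial markers were at 865 to 1172 CPM of all counts in MitoGamide Akita and 652 to 888 in vehicle WT, and the podocyte markers at 443 to 634 and 402 to 504, overlapping in both. Of 14 macrophage genes edgeR called Csf1r, which fell by 0.50 (log2, edgeR adjusted p = 0.044), while DESeq2 called 1 lower and 1 higher. That call was kept in 3 of 10 fits with 1 library left out, and not without replicate 5 (edgeR adjusted p = 0.0585) or without a filter on low counts. Of 7 tested liver markers 3 (1 to 3) were higher, the transferrin gene Trf (1.28 ± 0.32) and the apolipoprotein genes Apob (0.87 ± 0.22) and Apoa2 (0.88 ± 0.28, with overlap), with a median of 0.87. Without replicate 5 they stood at 0.79, 0.58 and 0.70, of which Apoa2 was not called (edgeR adjusted p = 0.0823), while 1 other member was called lower, and over the 10 fits with 1 library left out the calls were kept in 8, 8 and 2. A fit of all 40 libraries called 0 liver markers higher, where edgeR at an unadjusted p under 0.05 gave 4 in the 10 libraries and DESeq2 3. The whole list summed to 784 to 1757 CPM of all counts in MitoGamide Akita and 593 to 805 in vehicle WT (exact permutation p = 0.0159, adjusted 0.061), and its member Mup3 had 0 counts. The hepatocyte marker Alb, whose protein leaks into urine in glomerular disease, was at 5.07 to 8.48 CPM against 4.55 to 6.69 CPM and was not called (0.31 ± 0.17, edgeR adjusted p = 0.222).

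Values of the leading genes in related comparisons were placed side by side. The comparisons of vehicle Akita with vehicle WT and of MitoGamide Akita with vehicle Akita share libraries with the one described here, so likeness among them carries no weight of its own. The first called 1451 genes higher (8.18% of those tested) and 1459 lower (8.22%), and the latter 142 higher (0.833%) and 72 lower (0.422%). Kynu differed by 2.56 ± 0.14 between vehicle Akita and vehicle WT and by -0.06 ± 0.12 between MitoGamide Akita and vehicle Akita (log2, edgeR adjusted p = 0.801). For Lpl the same values were -2.10 ± 0.11 and 0.02 ± 0.11 (edgeR adjusted p = 0.938), and for Ugt1a2 5.47 ± 0.44 and 0.66 ± 0.63 (edgeR adjusted p = 0.576). For these 3 genes the Akita groups did not differ by the test.

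Other leading genes differed between the Akita groups. Thbs1 stood 0.48 ± 0.09 above WT in vehicle Akita and 0.99 ± 0.11 above it in MitoGamide Akita, and the difference between the Akita groups was 0.50 ± 0.09 (log2, edgeR adjusted p = 0.0348). Myrf stood at -0.32 ± 0.07 and -0.87 ± 0.08, with -0.55 ± 0.09 between the Akita groups (edgeR adjusted p = 0.0264). Sparc (0.53 ± 0.12), Nid1 (0.54 ± 0.11), the laminin gene Lama2 (0.55 ± 0.10), the endothelial genes Cdh5 (0.55 ± 0.12) and Ptprb (0.62 ± 0.14), and the respiratory chain genes Cox7b (0.33 ± 0.07), Ndufv2 (0.43 ± 0.09) and Cycs (0.58 ± 0.11) were also higher in MitoGamide than in vehicle Akita, and the lipogenic factor Mlxipl (-0.57 ± 0.10) was lower. Vehicle Akita differed from WT by -0.27 ± 0.11 in Cycs, -0.02 ± 0.11 in Lama2 and 0.02 ± 0.14 in Mlxipl, and MitoGamide Akita by 0.31 ± 0.09, 0.54 ± 0.13 and -0.54 ± 0.14, the calls of Cycs and Mlxipl being kept in 4 and 5 of 10 fits with 1 library left out. Of these 3, none was called in a fit of all 40 libraries, and Cycs was not with a replicate block. The cytosolic chaperone Hsp90aa1 lay on the side towards WT, at -1.12 ± 0.13 against WT in vehicle Akita, -0.64 ± 0.12 in MitoGamide Akita and 0.47 ± 0.10 between the Akita groups (edgeR adjusted p = 0.0466). For Grem1 (1.68 ± 0.46, edgeR adjusted p = 0.08), Fn1 (0.64 ± 0.19, 0.0972) and Hspa5 (0.41 ± 0.17, 0.194) the test between the Akita groups was not passed.

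**Figure D5:**
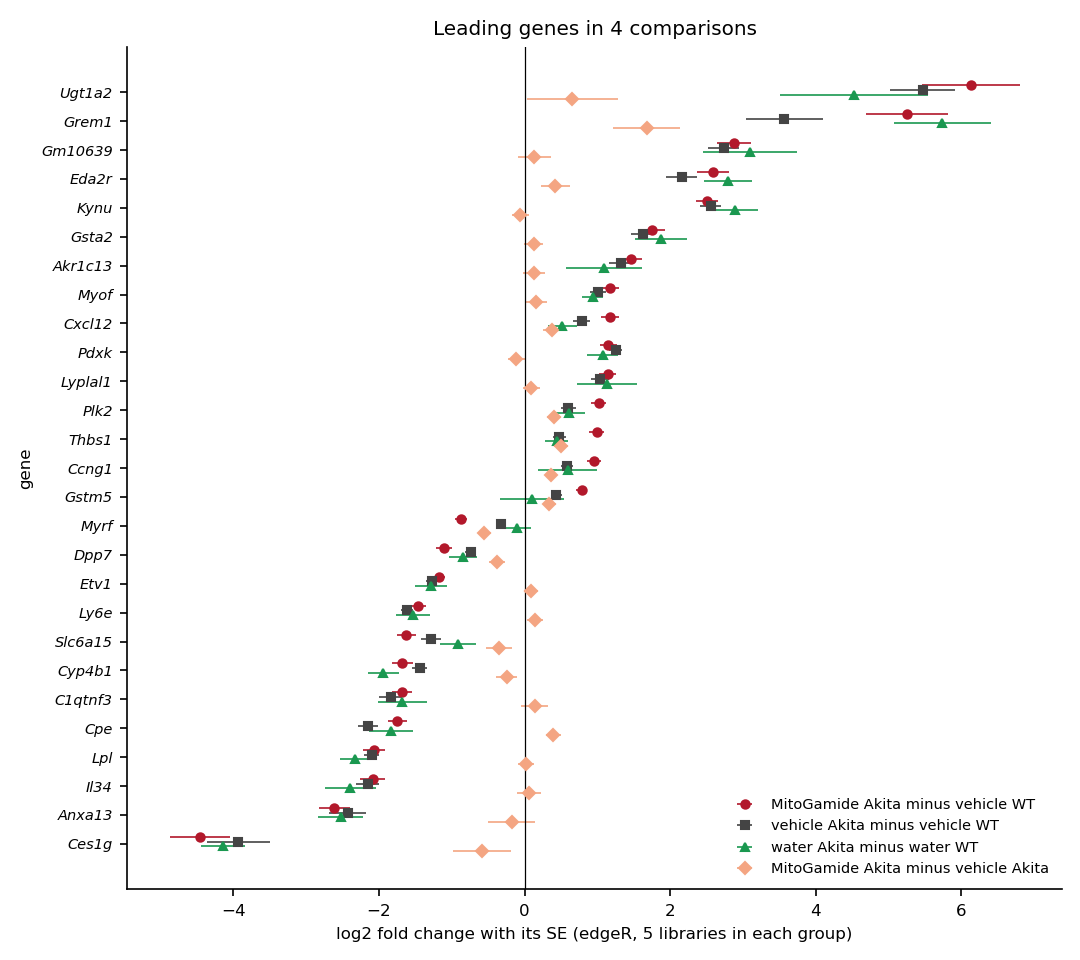
Log2 fold changes with their SE (horizontal axis) of the leading genes other than Gm6300, AA536875 and Cntnap5a (vertical axis) in 4 comparisons, each of 5 against 5 libraries. Points for MitoGamide Akita against vehicle Akita lie between -0.58 and 1.68.

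The water-treated Akita and WT mice of the study share no library with this comparison. Of 16920 genes tested in both, 2608 were called here and 101 between water Akita and water WT by the same edgeR test, 34 of them higher (0.186% of the genes tested there) and 67 lower (0.366%). Of these, 93 were called in both with the same direction, 33 higher and 60 lower, which is 3.57% of the calls here and 92.1% of those in water-treated mice. DESeq2 gave 262 such genes, a single fit of all 40 libraries gave 336 and a fit with a replicate block gave 29. Over all genes called higher here the median log2 fold change in water-treated mice was 0.22, and over those called lower it was -0.29. Kynu (2.90 ± 0.32, edgeR adjusted p = 0.003), Lpl (-2.32 ± 0.22, 7.49e-04), Grem1 (5.74 ± 0.67, 0.00318), Eda2r (2.79 ± 0.33, 0.00372), Ces1g (-4.14 ± 0.30, 1.40e-04) and Il34 (-2.39 ± 0.35, 0.0139) were among the 93. Thbs1 (0.44 ± 0.16, edgeR adjusted p = 0.445), Fn1 (0.50 ± 0.24, 0.713) and Hspa5 (-0.57 ± 0.26, 0.638) were not called in water-treated mice. Their values had the same direction as here. With 101 calls against 2608, a missing call in that comparison does not show that a difference is absent.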

How the data were processed

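Strand-specific, ribosomal RNA-depleted libraries of renal cortex from individual mice had been sequenced by the authors, who trimmed reads with Skewer and assigned them to GENCODE mouse transcripts (GRCm38) with kallisto 0.46.1, then worked in R 4.0.2. The authors deposited estimated counts per gene, summed from transcripts and given as whole numbers, for 40 libraries in 8 groups of 5. These were used as deposited, each column being matched to its sample by title. Estimated counts divide reads among similar transcripts, so close gene copies are less certain. No pair of the 10 libraries compared held identical values.

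Genes whose mean count over the 10 libraries was 10 or more were tested with edgeR 4.0.16 (R 4.3.3; TMM normalisation, quasi-likelihood F test), with Benjamini-Hochberg adjusted p under 0.05 over all genes as the call. The code was tested on simulated counts. Levels are CPM (counts scaled to 1000000 a library, with TMM factors), errors are SD (n = 5) for levels and SE for log2 fold changes, and SE was taken from the F statistic. Sums of gene families and markers are CPM of the library total and were compared by 2-sided exact permutation tests. Other comparisons were fitted in the same way on their own 10 libraries. The members and the gene lists (36 pathway and 18 marker lists) were chosen with earlier results of these data known. Named genes were the 15 with the smallest p in each direction among called genes without overlap, the 5 with the largest fold change, called list members that show what a list does, and genes whose products the study measured, with Ins1 and Ins2. Ins1 had no counts. Motifs were searched as letters in RefSeq promoters (GRCm38.p6), and gene coordinates were read from GENCODE release 21 of the mouse (GRCm38). Alternatives were DESeq2 1.42.0, RLE normalisation, other filters, all 40 libraries in 1 fit, a replicate block and leaving out each library. For sums of gene families, TMM-scaled library sizes were a further alternative. The p-values measure the spread between individual mice.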

Additional observations from a re-analysis of the deposited data

Results flagged for a closer look

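Of 334 sets of 5 values examined for the genes and sums named in the text, 37 (11.1%) had their highest or lowest value set off from the next by more than 0.71 of the range, where chance gives about 5%. Most came from replicate 5 of MitoGamide Akita, the library set apart on the first principal component. It was set apart above the other 4 Akita libraries in Cyp4a14 (1600.2 CPM), Mtarc1 (5.38 CPM), Slc2a9 (50.3 CPM), Slc2a2 (388 CPM), Pck1 (8342 CPM), G6pc (945 CPM), Nampt (228 CPM), Cyp4a10 (1540.0 CPM), Bhmt (84.8 CPM), Glud1 (1187 CPM), Atp5o (234 CPM), mt-Nd5 (8565 CPM), Cdkn1a (56.4 CPM), Cry2 (56.1 CPM), Calb1 (1379 CPM), S100g (564 CPM) and Trf (97.6 CPM), and in the summed mitochondrial mRNAs (82474 CPM). It was set apart below them in Ces2b (2.93 CPM), Hsp90b1 (233 CPM), Hspd1 (211 CPM) and Hspe1 (30.9 CPM).

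Replicate 1 of vehicle WT was the other library with several such values. It was above the other 4 WT libraries in Il34 (11.1 CPM), Eda2r (0.818 CPM), Gstm5 (62.7 CPM), Mtarc1 (0.503 CPM), Cd36 (383 CPM) and Npas2 (25.9 CPM), and below them in Slc2a2 (145 CPM), Abcc4 (39.0 CPM) and Syvn1 (26.7 CPM). Replicate 2 of vehicle WT was high in Ugt1a10 (4.09 CPM) and Hsp90ab1 (977 CPM). In MitoGamide Akita, replicate 2 was high in Kynu (46.5 CPM) and Lgals3 (29.1 CPM). Adh6-ps1, of which 4 Akita libraries had no count, stood apart at 0.145 CPM in replicate 1 of MitoGamide Akita and at 2.83 CPM in replicate 4 of vehicle WT. The cause of these values was not tested.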

How the results depend on the processing

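Leaving out 1 library at a time gave 753 to 1744 genes called higher and 576 to 1321 called lower. For the mitochondrial mRNA sum the log2 difference lay between 0.088 and 0.25 in these fits, with an exact permutation p above 0.05 in 8 of 10, while for the sum of all mitochondrial transcripts it lay between 0.44 and 0.52. With TMM-scaled library sizes and all 10 libraries, the mRNA sum differed by 0.39 (exact permutation p = 0.00794) and the sum of all mitochondrial transcripts by 0.68. DESeq2 called 1928 higher and 1531 lower, and a single fit of all 40 libraries 1024 and 916. Calls shared with the water arm numbered 262 with DESeq2, 336 in the fit of all 40 libraries and 29 with a replicate block, against 93. The labels give both groups the numbers 1 to 5, but same-numbered libraries correlated at -0.152 to 0.0184 and 0 of 5 correlated best with their own number, so the numbers were not used as pairs; the replicate block gave 1013 higher and 771 lower. Of the genes named in the text, 29 called genes lost the call in the fit of all 40 libraries, 13 with the block and 7 without a filter. With RLE normalisation 2 lost it, as did 2 when every library had to hold at least 10 counts, and DESeq2 added the calls of Slc5a2 and Hagh. Slc12a3, not called, changed sign without replicate 1 of vehicle WT (-0.00027, the lowest of the fits that leave out 1 library, up to 0.20). Calls kept in 9 of 10 of these fits were lost by Abcc4 and Bdh1 without replicate 1 of vehicle WT, by Col4a2, Cyp4a10, Hspa8, Krt18, Lgals3 and Slc22a12 without its replicate 4 and by Hsp90b1 without its replicate 5. The causes were not tested. With 5 animals a group, small differences and low transcripts are the least certain.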
